A study of Anguilla anguilla and Anguilla rostrata with 84 samples.

Results

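The comparison set liver transcripts of eels fed organochlorine pesticides against those of eels fed the higher of the study's doses of polychlorinated biphenyls (PCB). Fish entered the groups by their treatment labels, which gave 9 of the 84 fish of the series. The pesticide group held 5 European eels (Anguilla anguilla) whose food carried a pesticide mix at 13 ng/g dry weight. The PCB group held 4 European eels that took PCB in food at 300 ng/g dry weight. All 992 contigs on the arrays, which are assembled transcript sequences printed in 3 spots each, were measured in every fish. The other 40 laboratory fish fell into 8 groups, of which 38 fish were fitted because 2 raw columns were copies of another fish's. These groups were an untreated control, fish on less food (2.5% of body weight), fish held at 18 per mil salinity, fish held at 13 degrees C, PCB in food at 50 ng/g, cadmium in water at 0.4 or 4 ug/L, and methylmercury in food at 5 ug/g. A further 35 wild fish were not used here. Values below are log2 ratios that set each fish against a pool of 30 wild eels from Certes, France, so a value of 0 means the level of that pool. The pesticide and PCB diets differ in compound class and in dose together, and the 2 cannot be told apart. The sources used here do not give the compounds in the mixes, the length of feeding, or the age and sex of the fish. Of 992 contigs, 0 matched a gene in the reference table for this species, so contigs carry identifiers here and no function, and the tissue could not be checked against liver genes.

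Organochlorine pesticides and PCB are chlorinated, fat-soluble compounds that break down slowly and build up through food. Eels store much fat and live long in sediment-rich waters, which makes them a common species for monitoring such residues. The liver is the main organ that takes up and transforms them. Planar PCB congeners act through the aryl hydrocarbon receptor, which switches on detoxifying monooxygenases, while many other organochlorines act through nuclear receptors for foreign compounds or for steroids. This is background from other work, and no contig measured here is assigned to these pathways.

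The array quality of the 9 fish was uneven in the pesticide group. Between 857 and 986 contigs rose above background in both dyes on the pesticide arrays, and between 783 and 956 on the PCB arrays. The reference channel, which holds the same pool on every array, had mean log2 intensities of 9.12, 6.73, 6.48, 6.39 and 9.58 for pesticide replicates 1 to 5. Those of PCB replicates 1 to 4 were 9.75, 8.39, 8.24 and 8.73. Pesticide replicates 2, 3 and 4 were the 3 dimmest of the 47 laboratory arrays in this channel. The SD of the log ratios over 992 contigs was 0.27 to 0.58 on the pesticide arrays and 0.59 to 0.73 on the PCB arrays. The groups did not overlap, but only narrowly (0.583 against 0.585). They overlapped in every other processing tried, such as median centring (0.45 to 0.67 against 0.62 to 0.75). In the main processing the difference of the means was -0.19 (exact permutation test over 9 fish, two-sided, p = 0.0317, adjusted p = 0.127 over 4 array measures). The smallest p that 5 against 4 fish allow in this test is 0.00794. The other 3 measures, namely contigs above background and the brightness of each channel, gave exact permutation p = 0.206, 0.206 and 0.103. Counts without the 3 dim arrays are given below beside those of the main comparisons.

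**Figure D1:**
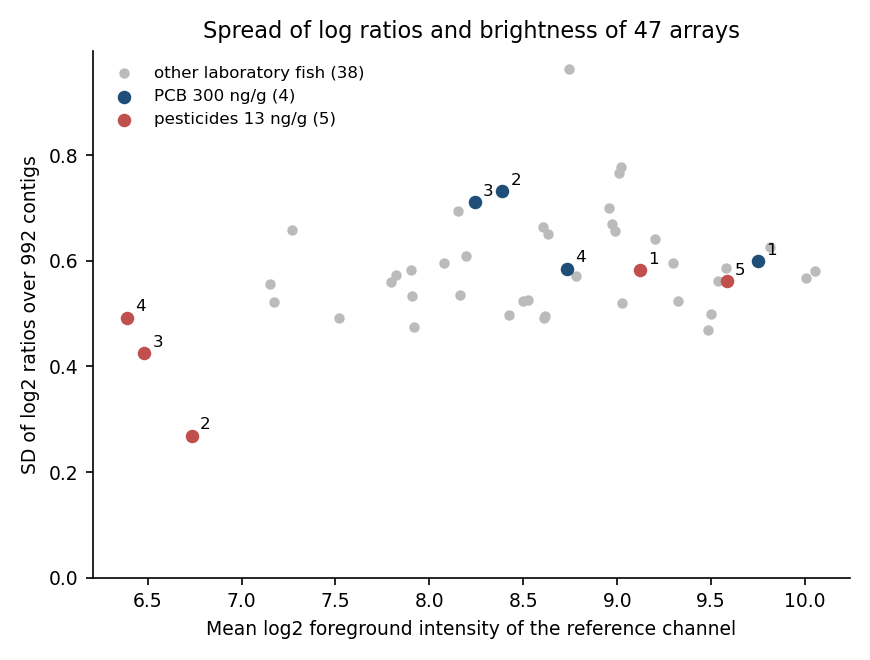
SD of the log2 ratios over 992 contigs (vertical axis) against the mean log2 intensity of the reference channel (horizontal axis) for 47 laboratory arrays, 1 point per fish, with replicate numbers for the pesticide and PCB groups. Pesticide replicates 2, 3 and 4 sit left of all other arrays, and replicate 2 has the smallest spread of the 47, 0.27.

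Across contigs the profiles of the diets correlated, as did those of each diet with the other laboratory groups. The group means correlated at r = 0.75 over 992 contigs, a description that rests on a shared reference pool and on contigs that are not independent. For comparison, the pesticide means correlated at 0.79 with PCB at 50 ng/g, 0.78 with methylmercury and 0.71 with the control. The PCB means at 300 ng/g correlated at 0.81 with methylmercury, 0.79 with PCB at 50 ng/g and 0.77 with the control. Only low temperature, at 0.69, correlated less with these PCB means than the pesticide group did. Only PCB at 50 ng/g and methylmercury correlated more with the pesticide means than the 300 ng/g group did. Between single fish, correlations ran from 0.60 to 0.81 within the PCB group (6 pairs) and from 0.30 to 0.62 within the pesticide group (10 pairs). They ran from 0.34 to 0.71 between the groups (20 pairs), with a median of 0.49, the same to 2 decimals as within the pesticide group. PCB replicates 2 and 3 formed the closest pair of the 9 fish. All 4 PCB fish correlated better on average with their own group than with the pesticide fish, but this held for only 2 of the 5 pesticide fish. Pesticide replicates 3 and 5 correlated best with PCB replicate 1 (0.71 and 0.70), and pesticide replicate 4 with PCB replicate 4 (0.62).

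The median difference between the diets over 992 contigs was 0.0071 on the log2 scale (pesticides minus PCB), with a 10th percentile of -0.47 and a 90th of 0.42. It exceeded 0.5 in size at 16.5% of contigs and 1 at 16 contigs. The pesticide mean lay closer to the pool than the PCB mean at 705 contigs (71.1%), and the median size of the group mean was 0.16 for pesticides and 0.26 for PCB. Without the 3 dim arrays the share was 57.0%, with median sizes of 0.24 over 2 pesticide fish and 0.26 for PCB. It was 59.2% with scaling between arrays, 59.6% with median centring, 64.9% with an offset of 0 and 70.6% of 732 contigs in the authors' processed values. The spread between fish was of like size in both groups, with a median SD per contig of 0.22 over 5 pesticide fish and 0.26 over 4 PCB fish. The 95% interval of the difference lay wholly within 1 log2 unit of 0 at 800 contigs (80.6%), and within 0.5 at 24.3% of contigs. The first of these counts depended on the processing, at 63 in the authors' processed values, 495 with an offset of 0 and 666 without the 3 dim arrays. The authors' values lack some contigs on each array. Their log ratios also spread more widely, with mean array SDs of 1.02 (pesticides) and 1.30 (PCB), against 0.47 and 0.66 in the main processing. These SDs are over the contigs of an array, while the interval rests on the spread between fish. Whether the wider array spread accounts for the count of 63 was not tested. The median half-width of the interval was 0.43.

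**Figure D2:**
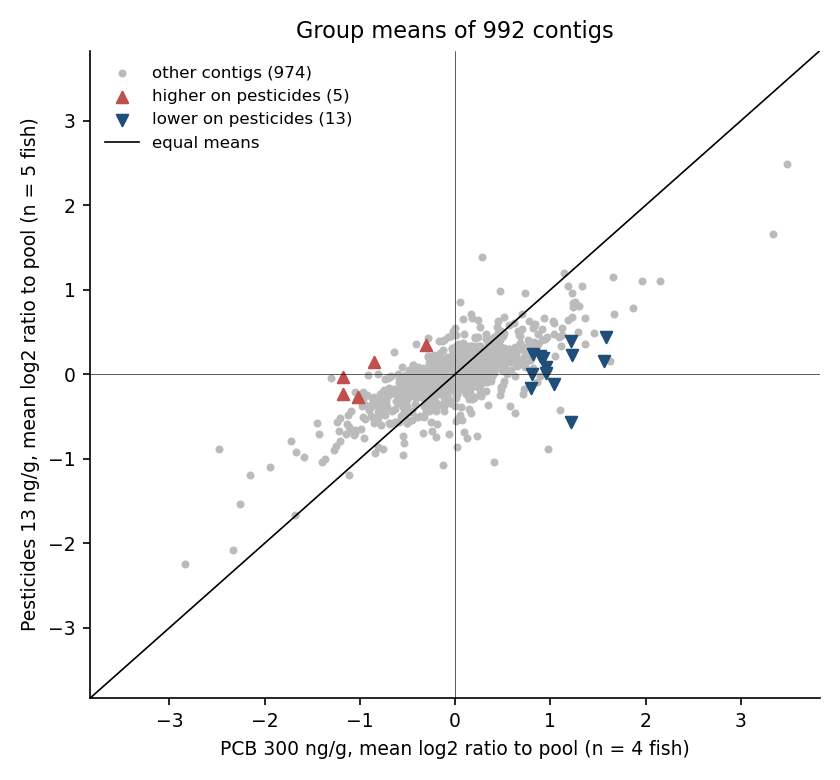
Mean log2 ratio to the pool of 5 pesticide fish (vertical axis) against that of 4 PCB fish (horizontal axis) for 992 contigs, with a line of equal means. The 5 triangles pointing up and the 13 pointing down passed the test, and most of these contigs lie along the horizontal axis, with a median distance from 0 of 0.99 in the PCB means and 0.21 in the pesticide means. These contigs were selected for distance between the same means.

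Pesticide fish differed from PCB fish at 18 of 992 contigs (1.81%), 5 higher (0.504%) and 13 lower (1.31%), by limma with Benjamini-Hochberg adjustment over all contigs and a threshold of 0.05. The differences ran from -1.78 to -0.58 among the lower contigs and from 0.66 to 1.15 among the higher ones. Without adjustment, 18.2% of contigs had a p under 0.05, 82 higher (8.27%) and 99 lower (9.98%). The 9 fish did not overlap at 16 of the 18 contigs, against 82 of all 992 (8.27%). The 18 were selected by a test on these same fish, which favours such separation. All 18 had signal above background in both channels on all 9 arrays, as 718 of the 992 did, none held a saturated spot there, and all 18 were brighter than the median contig. The pesticide mean was the closer to the pool at 17 of the 18, against 71.1% of all 992 contigs, or 57.0% without the 3 dim arrays. The median size of the group mean was 0.21 for pesticides and 0.99 for PCB, against 0.16 and 0.26 over all 992. The 18 were selected for distance between these same means, which by itself sets 1 mean far from the other. The PCB group had the highest mean of the 10 laboratory groups at 11 of the 18 contigs and the lowest at 4. The pesticide group had the highest at 3 and the lowest at 6. Over all 992 contigs the PCB group was at either end at 22.0% and the pesticide group at 14.5%. These places describe contigs that the test had already selected for distance between the same groups. The 50 ng/g PCB mean lay between those of the 2 groups at all 5 higher and 11 of the 13 lower contigs. That of the control did so at 3 of the 5 and 11 of the 13. These counts too come from contigs selected for a wide gap between the 2 groups, where means of other groups can readily fall. Whether the counts exceed those over all 992 contigs was not tested.

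**Figure D3:**
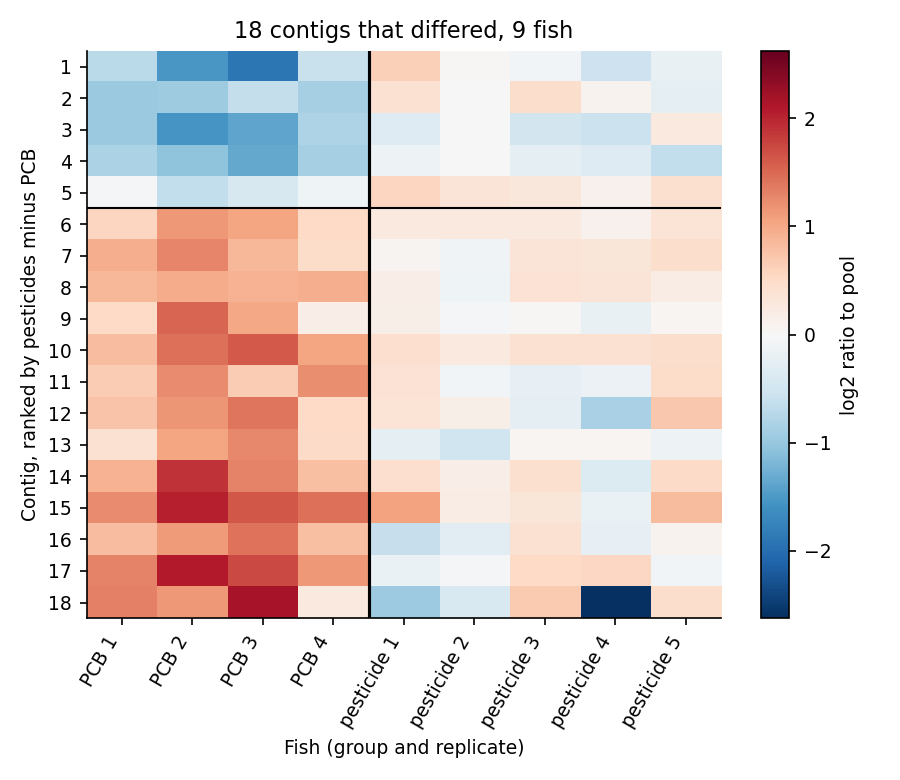
Log2 ratio to the pool (colour) of the 18 contigs that passed, ranked from the most positive to the most negative difference (rows), in 4 PCB and 5 pesticide fish (columns), with a horizontal line between the 5 higher and the 13 lower contigs. The PCB columns are the more strongly coloured in most rows, but not for the fifth contig, nor for single fish such as pesticide replicate 4 in the last row.

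The count depended on single fish. Without pesticide replicate 2 or PCB replicate 2, limma called 0 contigs, with 15.0% and 10.9% of contigs at an unadjusted p under 0.05. It called 1 without PCB replicate 3 and 5 without pesticide replicate 1, but 64 without PCB replicate 1 and 32 without PCB replicate 4. Without the 3 dim pesticide arrays, which left 2 pesticide fish, 4 contigs passed, of which 1 was among the 18. The differences of all 18 kept their direction both with the 3 dim arrays alone (median size 0.96) and with the other 2 pesticide arrays alone (0.76), in contigs selected on all 5. At the 16 contigs whose fish did not overlap, no choice of pesticide fish could have reversed the direction. With reference brightness as a covariate 22 passed, 11 of them among the 18. In the authors' processed values 1 contig passed, 1 higher and 0 lower, and it was not among the 18.

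**Figure D4:**
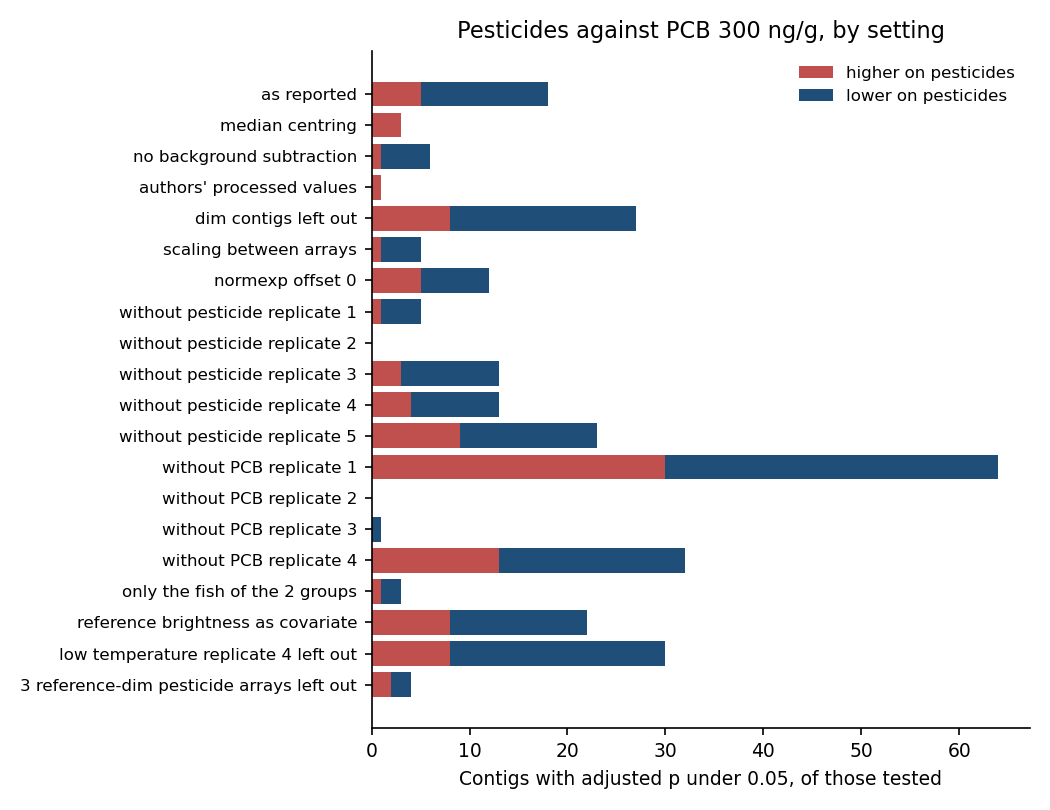
Contigs that passed (horizontal axis, number) for pesticides against PCB at 300 ng/g under each setting (rows), with contigs higher and lower on pesticides stacked. The bar as reported holds 18, those without pesticide replicate 2 and without PCB replicate 2 hold 0, and that without PCB replicate 1 holds 64.

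contig_17942 had the largest decrease among the contigs that passed and whose fish did not overlap. Its log2 ratios were -0.17, -0.04, 0.52, 0.53 and -0.06 in pesticide replicates 1 to 5 and 1.31, 2.08, 1.73 and 1.14 in PCB replicates 1 to 4. Every PCB fish lay above every pesticide fish. The pesticide mean was 0.16 ± 0.34 (SD, n = 5) and the PCB mean 1.57 ± 0.42 (SD, n = 4). The level was 2.66-fold lower on pesticides, a difference of -1.41 (SE 0.36, 95% interval -2.14 to -0.68, limma adjusted p = 0.0344). The PCB group held the highest mean of the 10 laboratory groups, and the next was 4 ug/L cadmium at 0.87 ± 0.97 (SD, n = 4). Single fish of other groups lay within the range of the PCB fish. These were control replicate 3 (1.90), 4 ug/L cadmium replicates 2 and 5 (1.95 and 1.42) and methylmercury replicate 4 (1.66). The 50 ng/g PCB fish, at 0.03 ± 0.20 (SD, n = 5) with signal above background on 3 of 5 arrays, lay close to the pesticide fish. The difference of pesticides from 50 ng/g PCB was 0.12 (SE 0.34, limma adjusted p = 0.99). The contig whose 10 group means were most like it was contig_18978, at r = 0.90, and that contig was lower on pesticides by 1.14 in the same comparison, -1.14 (SE 0.30, limma adjusted p = 0.0387).

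contig_17067 also had its highest group mean in the PCB fish at 300 ng/g. Pesticide replicates 1 to 5 stood at -0.59, -0.28, 0.40, -0.21 and 0.09, and PCB replicates 1 to 4 at 0.82, 1.12, 1.42 and 0.80. The groups did not overlap, with the pesticide fish on both sides of the pool and the PCB fish all above it. The means of -0.12 ± 0.38 (SD, n = 5) and 1.04 ± 0.29 (SD, n = 4) differed by -1.16 (SE 0.30, 95% interval -1.75 to -0.56, limma adjusted p = 0.0344), or 2.23-fold. PCB at 50 ng/g stood at -0.11 and the control at 0.19, and the 300 ng/g group was again the highest of the 10 and the pesticide group the lowest. Methylmercury replicate 2 (1.07) and low temperature replicate 3 (0.99) lay within the range of the 300 ng/g fish.

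**Figure D5:**
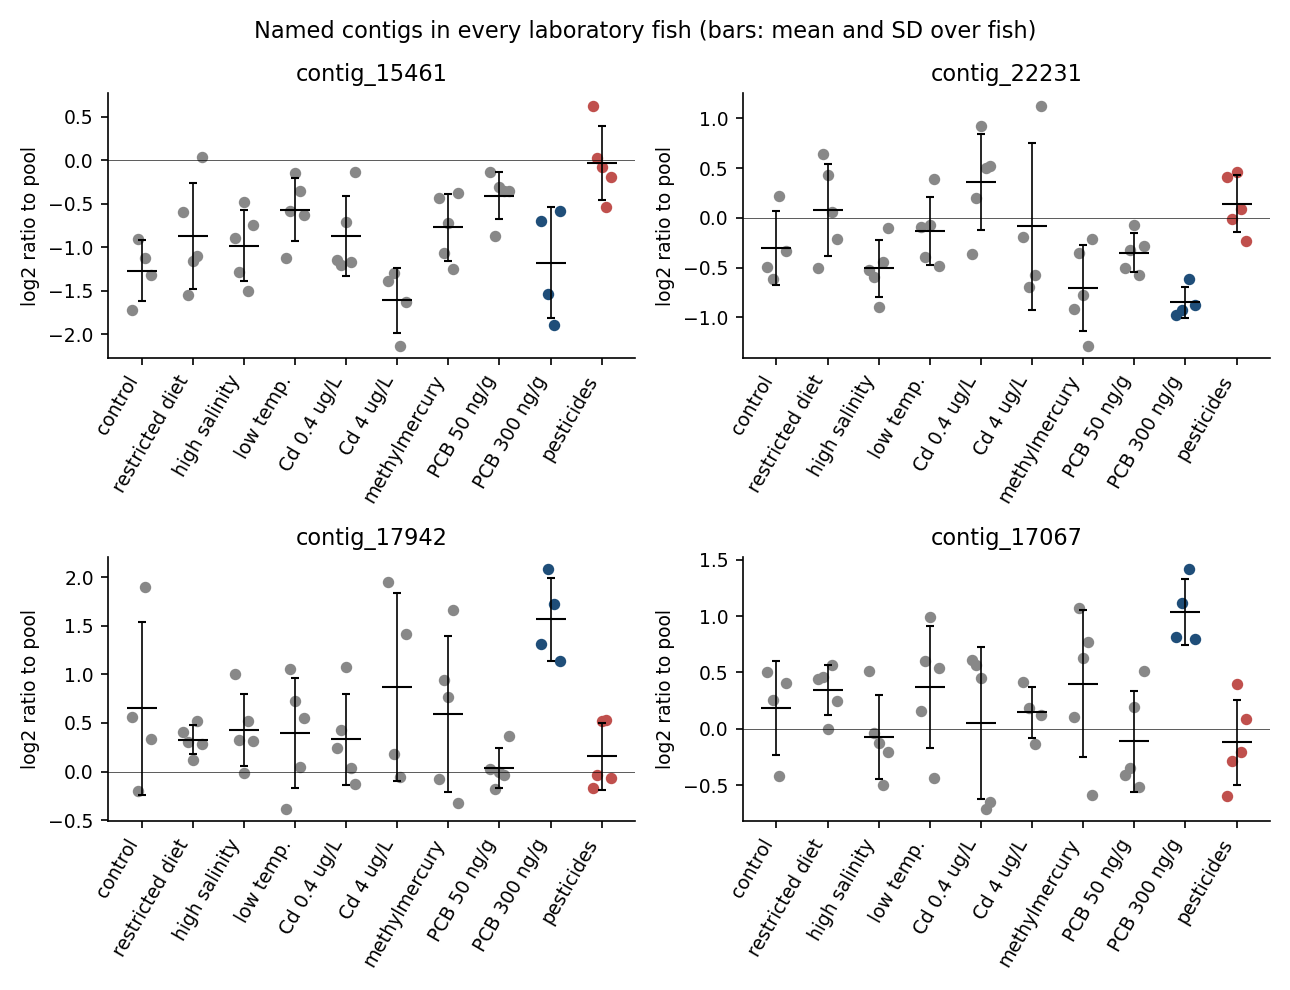
Log2 ratio to the pool (vertical axes) of 4 contigs in each of 47 laboratory fish by group (horizontal axes), with bars for the mean and SD over fish. PCB at 300 ng/g is the highest group for contig_17942 and contig_17067 and the lowest for contig_22231, and pesticides are the highest for contig_15461.

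contig_15461 had the largest increase on pesticides among the contigs that passed. Its values were 0.63, 0.03, -0.08, -0.54 and -0.19 in pesticide replicates 1 to 5 and -0.70, -1.53, -1.90 and -0.58 in PCB replicates 1 to 4. The groups did not overlap, but pesticide replicate 4 and PCB replicate 4 lay next to each other, and PCB replicates 2 and 3 lay far below the other PCB fish. The difference was 1.15 (SE 0.29, 95% interval 0.57 to 1.73, limma adjusted p = 0.0344), or 2.22-fold, between -0.03 ± 0.43 (SD, n = 5) and -1.18 ± 0.64 (SD, n = 4). Here the pesticide group stood at the end of the order of the 10 laboratory groups, as the highest, and PCB at 300 ng/g was lower than 7 of them. PCB at 50 ng/g came second at -0.40 ± 0.27 (SD, n = 5), with signal above background on 3 of its 5 arrays. The control stood at -1.27 ± 0.35 (SD, n = 4), close to the 300 ng/g fish, with signal above background on 3 of its 4 arrays. In the restricted diet group 2 of 5 arrays had such signal. The most similar contig over the 10 group means was contig_32275 (r = 0.90), whose own difference between the diets was 0.45 (SE 0.21, limma adjusted p = 0.226).

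contig_22231 was higher on pesticides by 0.99 (SE 0.27, 95% interval 0.45 to 1.54, limma adjusted p = 0.0401), or 1.99-fold. Its values were 0.41, -0.01, 0.46, 0.09 and -0.23 in pesticide replicates 1 to 5 and -0.97, -0.93, -0.62 and -0.88 in PCB replicates 1 to 4. All PCB fish lay below the pool and close together, and the pesticide fish lay around the pool. Among the 10 group means, PCB at 300 ng/g was lowest at -0.85 ± 0.16 (SD, n = 4), followed by methylmercury at -0.71 ± 0.43 (SD, n = 5), and pesticides at 0.14 ± 0.29 (SD, n = 5) came second to 0.4 ug/L cadmium at 0.36 ± 0.48 (SD, n = 5).

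The calls of these 4 contigs rested on few fish and on the processing. Their direction held in every alternative run. Leaving out fish of the 2 groups could not reverse it, since these contigs were named for having no overlap. contig_17942 and contig_15461 no longer passed without any 1 of pesticide replicates 1 and 2 and PCB replicates 2 and 3, at differences of -1.36 to -1.24 and 0.91 to 1.14. contig_17067 lost its call without any 1 of the same 4 fish or pesticide replicate 4 (-1.13 to -1.03). contig_22231 lost it without any 1 of pesticide replicates 1 to 4 or PCB replicates 2 to 4 (0.91 to 1.07). Without the 3 dim pesticide arrays the differences were -1.68, -1.29, 1.40 and 0.94 for contig_17942, contig_17067, contig_15461 and contig_22231, with limma adjusted p = 0.0823, 0.122, 0.0823 and 0.209. In the authors' processed values they were -1.98, -1.45, 2.01 and 1.83, with limma adjusted p = 0.282, 0.188, 0.209 and 0.188. Without background subtraction they were smaller, at -0.68, -0.83, 0.41 and 0.57, with limma adjusted p = 0.0727, 0.0676, 0.156 and 0.133. All 4 calls were also lost with scaling between arrays (limma adjusted p = 0.0517 to 0.0601), and all but that of contig_22231 with median centring (0.0737 to 0.144).

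Each diet was then set against the equally weighted mean of the other 8 laboratory groups, to show on which side of the comparison a contig departed. These comparisons share their baseline and their fish with the one above and are not independent of it. PCB fish at 300 ng/g differed from the other groups at 22 contigs (2.22%), 12 higher (1.21%) and 10 lower (1.01%). Pesticide fish differed at 2 contigs (0.202%), 1 higher and 1 lower (0.101% each). Without adjustment the shares with a p under 0.05 were 14.3% and 12.6%. Whether the counts themselves differ was not tested, and their order reversed with scaling between arrays and without background subtraction. For contig_17942 the departure was 1.11 (SE 0.28, limma adjusted p = 0.0314) in the PCB fish and -0.30 (SE 0.26, limma adjusted p = 0.679) in the pesticide fish. contig_17067 stood at 0.87 (SE 0.23, limma adjusted p = 0.0334) and -0.28 (SE 0.21, limma adjusted p = 0.61). For contig_15461 the larger departure was that of the pesticide fish, 0.89 (SE 0.20, limma adjusted p = 0.0371), against -0.26 (SE 0.22, limma adjusted p = 0.685) in the PCB fish. The baseline of contig_15461 rests in part on signal near background, as given above for 50 ng/g PCB, the control and the restricted diet. contig_22231 passed for neither diet, at 0.35 for pesticides and -0.64 for PCB.

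On the PCB side contig_16681 had the lowest adjusted p of the 4 contigs named for it. PCB replicates 1 to 4 stood at -0.82, -1.05, -1.34 and -0.88, all below every pesticide fish (-0.64 to 0.01) and every 50 ng/g fish (-0.40 to -0.14). Methylmercury replicate 4 (-1.19) lay within the range of these PCB fish, and signal at 50 ng/g was above background on 4 of 5 arrays. The departure from the 8 groups was -0.80 (SE 0.15, limma adjusted p = 0.00279), or 1.74-fold lower, and that of the pesticide fish was -0.05 (SE 0.13, limma adjusted p = 0.934). This call was lost without PCB replicate 3 (-0.69) and in the authors' processed values (-0.90), and held in 7 of 8 alternatives other than leaving out 1 fish. contig_33203 was lower by 0.77, -0.77 (SE 0.18, limma adjusted p = 0.0314), with PCB fish from -1.33 to -0.55, and this call was lost without PCB replicate 2 or 3 (-0.71 to -0.65). Pesticide replicate 5 (-0.85) lay within the range of the PCB fish. So did single fish of the high salinity, 4 ug/L cadmium, methylmercury and low temperature groups. Signal of contig_33203 was above background on 3 of 4 control and 3 of 5 PCB arrays at 50 ng/g, so its baseline rests in part on signal near background. contig_31893 was higher by 1.14 (SE 0.32, limma adjusted p = 0.0476) at 0.59, 2.07, 2.20 and 1.64 in PCB replicates 1 to 4, of which replicate 1 lay within the pesticide range of -0.34 to 0.86. Fish of each of the 8 other groups also lay within the range of these PCB fish. Examples are 50 ng/g replicate 5 (1.84), low temperature replicate 2 (1.37) and control replicate 1 (1.18). contig_25366 was higher by 1.13 (SE 0.31, limma adjusted p = 0.036) at -0.28, 0.22, -0.63 and 0.19. Low temperature fish, at -0.15 ± 0.32 (SD, n = 5), stood at about the level of the PCB fish for contig_25366, -0.13 ± 0.41 (SD, n = 4). Pesticide replicate 3 (-0.627) lay just within the range of these PCB fish (-0.629 to 0.221). So did fish of the restricted diet, high salinity, 0.4 ug/L cadmium and methylmercury groups. The call of contig_25366 was lost without any 1 PCB fish (1.01 to 1.30), and that of contig_31893 without any 1 of PCB replicates 2, 3 and 4 (0.95 to 1.14). In the same 8 alternatives the call held in 4 for contig_33203, 3 for contig_31893 and 3 for contig_25366, with limma adjusted p up to 0.889, 0.589 and 0.759. The count of 22 fell to 0 without PCB replicate 3 and 1 without PCB replicate 2, with 9.07% and 10.6% of contigs at an unadjusted p under 0.05 in limma, and was 13 without PCB replicate 4. Without the 3 dim pesticide arrays, which enter this comparison through the shared spread, it was 16.

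On the pesticide side contig_19304 was the single contig lower than the other groups, by -0.79 (SE 0.18, limma adjusted p = 0.0371), or 1.73-fold. Its values were 0.35, 0.16, -0.25, -0.85 and 0.70 in pesticide replicates 1 to 5, a wide spread around the pool, and 0.74, 1.15, 1.39 and 0.52 in PCB replicates 1 to 4. The pesticide mean of 0.02 ± 0.60 (SD, n = 5) was the lowest of the 10 laboratory groups, and low temperature came next at 0.19 ± 0.29 (SD, n = 5). Without pesticide replicates 3 or 4 the call was lost (-0.72 to -0.57), and without the 3 dim arrays the departure was -0.28 (limma adjusted p = 0.883). That of contig_15461 was lost without any 1 of pesticide replicates 1, 2, 3 and 5 (0.72 to 0.93). The next contigs by the naming rule did not pass, with contig_18895 at 0.46 (SE 0.12, limma adjusted p = 0.0802) and contig_19263 at -0.56 (SE 0.14, limma adjusted p = 0.0523). The count of 2 was 4 without pesticide replicate 1 or 2, 1 without pesticide replicate 4 and 0 without pesticide replicate 3, where 11.6% of contigs had an unadjusted p under 0.05 in limma. It was 7 without the 3 dim arrays, neither of the 2 among them.

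The mean of the 2 organochlorine groups was also tested against the other 8 groups, to look for what the diets had in common. Only contig_27176 passed (0.101%), lower by -0.36 (SE 0.08, limma adjusted p = 0.0487), or 1.29-fold. Its values were -0.19, 0.01, -0.21, 0.04 and -0.26 in the pesticide fish and -0.20, -0.03, -0.18 and -0.37 in the PCB fish. Set singly against the same 8 groups, the PCB fish passed at -0.40 (SE 0.11, limma adjusted p = 0.0476). The pesticide fish alone did not pass, at -0.33 (SE 0.10, limma adjusted p = 0.105). Both groups overlapped closely and held the 2 lowest means of the 10, at -0.12 ± 0.14 (SD, n = 5) and -0.19 ± 0.14 (SD, n = 4), with low temperature next at -0.08 ± 0.21 (SD, n = 5). The 50 ng/g PCB fish stood at 0.10 ± 0.20 (SD, n = 5). The call was lost without any 1 of pesticide replicates 3 and 5 and PCB replicates 1, 3 and 4 (-0.37 to -0.33), and without the 3 dim arrays (-0.42). Of the contigs that came next by the naming rule, contig_34019 stood at -0.52 (SE 0.12, limma adjusted p = 0.0563) and contig_15823 at 0.24 (SE 0.10, limma adjusted p = 0.397). Signal of contig_15823 was above background on 2 of 4 control, 2 of 5 restricted diet and 3 of 5 PCB arrays at 50 ng/g, while contig_7214 had signal above background on 0 of 4 control arrays and is given no size. The count was 0 without pesticide replicate 3 or PCB replicates 1, 3 or 4, with 90 to 97 contigs at an unadjusted p under 0.05 in limma, 3 without pesticide replicates 1 or 2, and 2 without pesticide replicate 5.

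Against the lower PCB dose, where class and dose again differ together, pesticide fish differed at 1 contig (0.101%), with 67 (6.75%) at an unadjusted p under 0.05. This was contig_23680, which fell outside the naming rule because the groups overlapped and is given because it was the single call. It was lower on pesticides by -1.15 (SE 0.24, 95% interval -1.63 to -0.66, limma adjusted p = 0.0216). Pesticide replicates 1 to 5 stood at -0.09, -0.11, -0.26, -0.99 and 0.48 and 50 ng/g replicates 1 to 5 at 0.94, 0.72, 1.27, 0.32 and 1.48. The PCB fish at 300 ng/g stood at -0.24, 0.72, 0.80 and -0.0014 and overlapped both, and 50 ng/g held the highest mean of the 10 groups, 0.95 ± 0.45 (SD, n = 5). The count was 0 without any 1 of pesticide replicates 3 and 4 and 50 ng/g replicates 1, 3 and 5, with 49 to 80 contigs at an unadjusted p under 0.05 in limma. On 50 ng/g replicates 3 and 5, 470 and 377 contigs were above background in both dyes, against 980, 990 and 987 on replicates 1, 2 and 4. contig_23680 itself was above background on each of these arrays. Without the 3 dim pesticide arrays 1 contig passed, higher on pesticides and other than contig_23680. Among contigs with no overlap, the smallest p belonged to contig_39223 (-0.69, SE 0.20, limma adjusted p = 0.276), contig_38699 (-0.79, SE 0.24, limma adjusted p = 0.279), contig_18304 (0.70, SE 0.21, limma adjusted p = 0.279) and contig_18907 (0.46, SE 0.19, limma adjusted p = 0.556), none of which passed. contig_39223 and contig_38699 stood at -0.81 (limma adjusted p = 0.0347) and -0.83 (limma adjusted p = 0.0663) against PCB at 300 ng/g. For them the pesticide fish lay low against both PCB doses, with means of 0.00037 and 0.22 beside 0.69 and 1.01 at 50 ng/g and 0.81 and 1.05 at 300 ng/g. Both contigs were picked for having no overlap with the 50 ng/g fish. Low temperature lay lower than the pesticide group for both, at -0.16 and 0.17, as did methylmercury for contig_39223, at -0.09.

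For the 4 contigs named first, the differences between the PCB doses (300 minus 50 ng/g) stand beside those between the diets, with 11 contigs (1.11%) passing between the doses. They were 1.53 for contig_17942 (SE 0.36, limma adjusted p = 0.038), 1.15 for contig_17067 (SE 0.30, limma adjusted p = 0.0404), -0.77 for contig_15461 (SE 0.29, limma adjusted p = 0.183) and -0.50 for contig_22231 (SE 0.27, limma adjusted p = 0.402). At 50 ng/g all but contig_17067 had signal above background on 3 of 5 arrays, so that these sizes rest in part on signal near background. They share the 300 ng/g fish with the comparison between the diets.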

How the data were processed

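The authors deposited foreground and background spot intensities of both dyes, which ran from 10 to 65535 over the laboratory fish and were not background-subtracted, per the file headers and the values. They also deposited log2 values per contig, which for the 9 fish were recomputed to within 0.0053 as median-centred ratios of background-subtracted signals. Scanner and software are not named in the labels. Intensities were corrected by normexp with an offset of 50, which pulls log ratios of dim arrays toward 0, then normalized by loess within arrays and averaged over 3 spots. These steps and the fits used limma 3.58.1 (R 4.3.3). The model (lmFit, then eBayes) held a mean for each of 10 laboratory groups.

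Of 49 laboratory fish, 47 were fitted, since the raw columns of control replicate 5 and of replicate 1 at 4 ug/L cadmium repeated those of another fish. Array measures were compared by exact permutation tests. Named contigs passed the threshold, had no overlap (or lay on 1 side of the baseline), and were the 2 largest in each direction. Between single groups, they were also above background on every array of the groups compared. Where the other laboratory groups formed the baseline, this rule covered the pesticide or PCB arrays tested and not the baseline arrays. Some named contigs therefore lacked signal above background on baseline arrays. Where fewer passed, those next by unadjusted p are given as values. Members and lists were chosen with earlier results of these data known. p-values measure the spread between fish, and the number of arrays limits precision. The fits were tested on simulated data. The alternatives were other background corrections and normalizations, the authors' values, filters on dim contigs and arrays, a brightness covariate, and leaving out fish.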

Additional observations from a re-analysis of the deposited data

Results flagged for a closer look

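On the array of pesticide replicate 2, 857 contigs were above background in both channels. The other pesticide arrays had 961, 986, 966 and 984, and the gap to the nearest of them was 0.806 of the range of the group. Of 46 sets of values examined for a fish far from its group, this was the 1 that stood apart. How many of 46 sets would stand apart by chance was not tested, so 1 of 46 is given as a description only. The array of pesticide replicate 2 is also the one with the smallest spread of log ratios. Without this array 0 contigs passed between the diets in limma, against 18 with it (15.0% of contigs had an unadjusted p under 0.05 without it).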

How the results depend on the processing

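Counts of contigs passing in limma changed with most settings, and the cause was not tested. For pesticides against PCB at 300 ng/g the count of 18 was 3 with median centring, 6 without background subtraction, 1 in the authors' processed values, 5 with scaling between arrays, 3 with only the fish of the 2 groups, 30 without low temperature replicate 4 and 4 without the 3 dim pesticide arrays. It was 27 of the 744 contigs that remained without dim contigs, 12 with an offset of 0, and 22 with the brightness covariate. Leaving out 1 fish gave 0 to 64. The 800 contigs with an interval within 1 log2 unit became 63 in the authors' values, which lack some contigs and spread more widely over the contigs of an array. They became 495 with an offset of 0, and 735 to 805 without 1 fish.

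Against PCB at 50 ng/g the count of 1 became 0 with median centring, without background subtraction, in the authors' values and with only the fish of the 2 groups (60 to 86 contigs at an unadjusted p under 0.05), 2 with scaling, and 0 to 1 without 1 fish. For pesticides against the other 8 groups the count of 2 became 0 with median centring (10.7% of contigs at an unadjusted p under 0.05) and in the authors' values (92 contigs), 17 without background subtraction, 4 without dim contigs, 18 with scaling, 1 with an offset of 0, 6 without low temperature replicate 4, 7 without the dim arrays, and 0 to 4 without 1 fish. For PCB at 300 ng/g against them the count of 22 became 1 with median centring, 13 without background subtraction, 1 in the authors' values, 2 with scaling, 2 with an offset of 0, 16 without the dim arrays, and 0 to 20 without 1 fish. The pesticide count was thus the larger with scaling (18 against 2) and without background subtraction (17 against 13). For both diets together the count of 1 became 0 with median centring (78 contigs at an unadjusted p under 0.05), in the authors' values (59), with an offset of 0 (10.8%) and without the dim arrays (80), 6 without background subtraction, 4 without dim contigs, 4 without low temperature replicate 4, and 0 to 3 without 1 fish.

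The difference in array spread (-0.19) was -0.12 with median centring (exact permutation p = 0.0794), -0.11 without background subtraction (0.0635), -0.28 in the authors' values (0.175) and -0.10 with an offset of 0 (0.127), and reversed to 0.0244 with scaling between arrays (0.532). Among the alternative values of the named contigs, 0 changed direction, 91 lost the call, 14 gained one and the rest kept their side of the threshold. Leaving out fish of the named groups could not change a direction, since the naming rule put all these fish on 1 side. The alternatives with an offset of 0 and without the dim arrays, and those of array spread, were chosen after seeing the data, as was leaving out low temperature replicate 4 for pesticides against either PCB dose. The slide could not be fitted as a block because each slide holds 1 array. No paired analysis was possible because the labels give fish identifiers and no shared replicate numbers. Low signal limits the contigs near background, since single arrays of the other groups had as few as 377 contigs above it.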

Other observations

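In the 38 fitted fish of the other 8 laboratory groups, the 13 contigs lower on pesticides correlated with each other at a median r of 0.09 over 78 pairs. The comparison between the diets did not use the mean levels of these fish, but their spread entered its test. Over all pairs of the 992 contigs the median r was -0.0013. The 5 contigs higher on pesticides had a median r of 0.03 over 10 pairs, and pairs of a higher and a lower contig had one of -0.07 over 65. These values are a description, since contigs share arrays and are not independent.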
